A study of Homo sapiens with 6 samples.

Results

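The 8 genes described here encode the core enzymes and factors that write, maintain, remove and read DNA methylation, and they are DNMT1, DNMT3A, DNMT3B, UHRF1, TET1, TET2, TET3 and MBD2. They were chosen by name, and all 8 have a row among the 19792 genes in the authors' table. The samples are 6 RNA-seq libraries of BT-549, an established line from a triple-negative breast cancer in a human patient, which carried a tetracycline-inducible shRNA against WDR5 and puromycin resistance. The vehicle group (3 libraries) received 0.1% DMSO, and the DOX group (3 libraries) received 500 ng/ml doxycycline (DOX), which switches on the shRNA. The libraries come from triplicate cultures of this line in each group, the study treated the cells for a week, and all of them carry the construct, so that DOX itself and the silencing of WDR5 cannot be told apart in this design. WDR5 is a core subunit of the COMPASS H3K4 methyltransferases, and the study asked which genes depend on it. The value analysed is the authors' mean normalized count of a gene over the 6 libraries. That mean pools both groups, and it comes with no value of a single library. Levels in vehicle-treated and DOX-treated cells could therefore not be separated, and no comparison of DOX with vehicle was made here. The table's columns of the authors' own comparison were not used. A pooled mean carries no error, so no test was run on any difference below, and the depth of each library is unknown.

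DNA methylation in mammals is the addition of a methyl group to cytosine, mostly where a guanine follows (CpG). DNMT3A and DNMT3B place new marks, whereas DNMT1 copies marks onto the daughter strand after replication, guided by UHRF1, which recognizes hemimethylated CpG. TET enzymes oxidize 5-methylcytosine, which opens a path to its removal, and MBD2 binds methylated CpG and recruits the NuRD repressor complex. Cytosine methylation at promoters is known to oppose H3K4 methylation, the mark that COMPASS deposits.

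CpG is the substrate and the binding site of these proteins, so the CpG sites of their own promoters are shown. RefSeq (GRCh38.p14) holds a window at the canonical start site for DNMT1, DNMT3A, UHRF1, TET1, TET2, TET3 and MBD2, and the 250 bases before that start were read. Those of DNMT3A, TET1, TET3 and MBD2 overlap no annotated exon of their gene and are printed 5′ to 3′ on the strand of the gene, with each CpG in capitals. TET1 and TET3 are shown as the erasers with the fewest and the most CpG sites in the window read, DNMT3A as a writer and MBD2 as the reader. They lie at chr10:68560087-68560336 on the plus strand (TET1), chr2:73984660-73984909 on the plus strand (TET3), chr2:25341926-25342175 on the minus strand (DNMT3A) and chr18:54224670-54224919 on the minus strand (MBD2).
TET1: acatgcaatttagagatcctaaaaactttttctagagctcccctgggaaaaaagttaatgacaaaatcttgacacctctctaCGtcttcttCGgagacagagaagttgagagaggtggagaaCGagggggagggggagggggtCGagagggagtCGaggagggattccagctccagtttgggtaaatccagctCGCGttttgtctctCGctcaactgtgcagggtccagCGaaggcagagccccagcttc
TET3: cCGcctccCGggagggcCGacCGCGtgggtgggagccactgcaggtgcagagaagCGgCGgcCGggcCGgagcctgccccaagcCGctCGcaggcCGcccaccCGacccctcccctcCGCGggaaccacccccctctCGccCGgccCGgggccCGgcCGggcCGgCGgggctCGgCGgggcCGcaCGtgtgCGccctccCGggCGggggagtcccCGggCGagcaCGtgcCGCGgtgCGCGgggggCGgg
DNMT3A: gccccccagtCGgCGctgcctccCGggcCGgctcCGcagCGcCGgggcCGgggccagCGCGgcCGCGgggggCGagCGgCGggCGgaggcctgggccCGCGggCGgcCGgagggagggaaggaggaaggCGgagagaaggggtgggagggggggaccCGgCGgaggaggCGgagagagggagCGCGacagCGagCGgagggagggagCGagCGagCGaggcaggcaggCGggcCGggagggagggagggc
MBD2: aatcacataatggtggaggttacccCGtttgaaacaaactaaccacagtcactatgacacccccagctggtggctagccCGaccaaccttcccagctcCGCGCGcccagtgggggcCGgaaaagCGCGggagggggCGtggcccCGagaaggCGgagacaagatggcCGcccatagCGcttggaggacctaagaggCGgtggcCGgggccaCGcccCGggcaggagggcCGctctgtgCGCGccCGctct

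The windows before the canonical start of the erasers differed widely in CpG content. RefSeq holds 3 windows each for TET1 and UHRF1, 2 each for TET2 and TET3 and 6 for DNMT3A. Only the window at the canonical start was read, and bases after the start were not counted. The values below therefore need not hold for other start sites of these genes. TET1 had 9 CpG sites in 250 bases, with a GC content of 51.6%, while TET2 had 34 (72.8%) and TET3 had 37 (84%). Across 17197 genes with such a window, 30.4% had fewer CpG sites than TET1, 90.8% fewer than TET2 and 94.6% fewer than TET3, and the median was 18. DNMT3A had 33 CpG sites, UHRF1 had 28, and DNMT1 and MBD2 each had 21. These 4 counts also lie above that median. Among the 9520 of these genes whose mean normalized count was 10 or more, the median was 22, so that DNMT1 and MBD2 lay just below it, and 8.54% had fewer CpG sites than TET1. The order of CpG content was not the order of expression, because TET3, with the most sites, was among the lower genes and DNMT1, with the highest level per kilobase, shared the second lowest CpG count with MBD2. The windows of DNMT1, UHRF1 and TET2 overlap exons of other transcripts of their gene. The letters GGGCGG, the core of an SP1 site, were found on either strand in 5 of 7 windows (DNMT3A, UHRF1, TET2, TET3 and MBD2), as against 56.2% of all windows. CCAAT, read by NF-Y, was found in 1 of 7 (UHRF1), as against 34.9%. CCGGAAG, the core of an ETS site, was found in 0 of 7 and in 11.7% of all windows. The E2F letters TTTGGCGC and TTTCGCGC were found in 0 of 7, and each was found in under 1% of all windows (0.698% and 0.634%). Only these exact spellings were searched, so their absence does not show that the windows lack an E2F site. The UHRF1 window holds another spelling of that site on the opposite strand, close to the start, which the search did not cover.

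**Figure D1:**
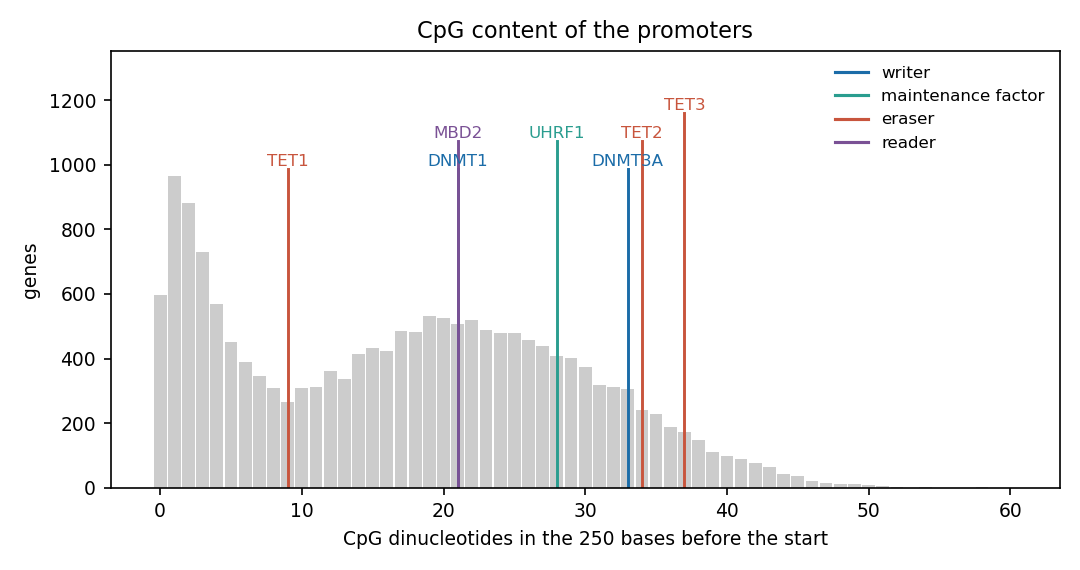
CpG sites in the 250 bases before the start (horizontal axis) against the number of genes (vertical axis) for 17197 genes, with coloured lines at 7 of the methylation genes. TET1 lies at 9 sites, in the trough between the CpG-poor and CpG-rich promoters, and the others lie between 21 and 37.

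The label of the cells was checked against marker genes. The mesenchymal genes VIM (mean normalized count 47782), FN1 (30461), SPARC (19657) and ZEB1 (7333) were all abundant, while the epithelial genes EPCAM (1.30), CDH1 (59.6) and KRT8 (57.3) were low. The estrogen receptor gene ESR1 (0.790) and the progesterone receptor gene PGR (0.801) were each under a mean normalized count of 1. ERBB2, which encodes HER2, was at 1221, so it was not low as ESR1 and PGR were. HER2 protein was not measured here. PTPRC, a leukocyte gene, was at 44.7 and PECAM1, an endothelial gene, at 2.86. The targeted gene WDR5 had a mean normalized count of 1143, which pools both groups and so does not check its silencing.

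The 8 genes together made up 0.0438% of the summed mean normalized counts of all genes (26551206). All 8 had mean normalized counts of 10 or more, and 7 had 100 or more. TET1, at 98.2, was the exception. The counts ranged 52.1-fold, from TET1 to DNMT1 at 5118. Long transcripts yield more reads, so levels of different genes were compared as the mean normalized count per kilobase of the canonical transcript in GENCODE 44. On that scale the range widened to 95.0-fold. A low level in such bulk RNA can reflect fewer cells that express a gene or less RNA in each cell, which cannot be told apart.

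**Figure D2:**
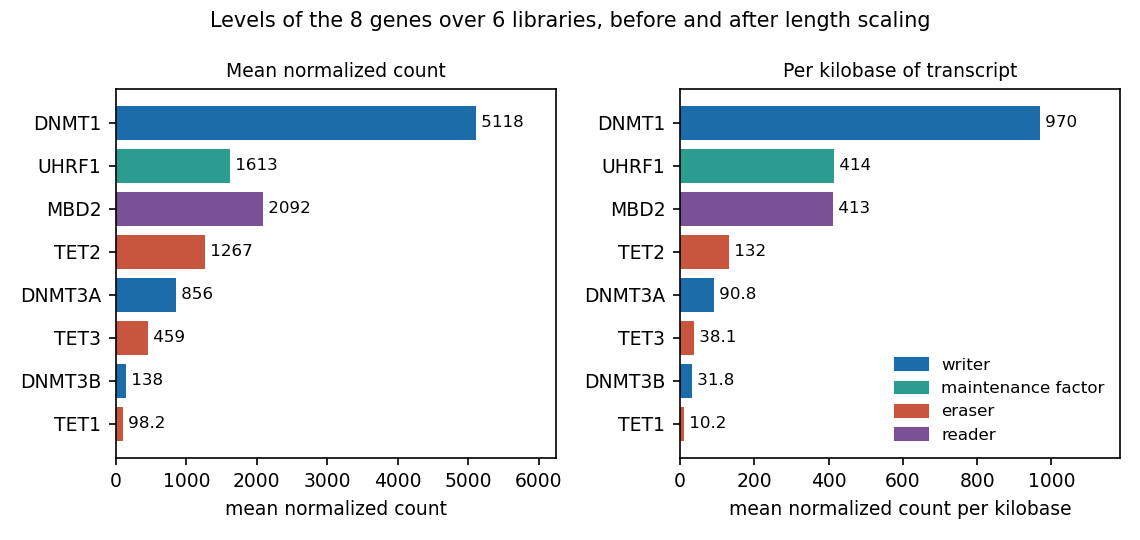
Bars give the authors' mean normalized count over 6 libraries (left) and the same value per kilobase of canonical transcript (right) for the 8 genes, coloured by role. DNMT1 is the highest on both scales (5118 and 970.5 per kilobase), and MBD2 exceeds UHRF1 before but not after scaling by the canonical length.

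Among the writers, the maintenance enzyme DNMT1 was the main transcript. The gene lies on chromosome 19 of GRCh38 from 10133342 to 10231286 on the minus strand, with 41 exons in its canonical transcript of 5274 bases. Its level was 970.5 per kilobase, above 84.7% of the 13028 genes that had a length and a mean normalized count of 10 or more, and 4.66 times the median gene (208 per kilobase). DNMT3A (chromosome 2, 25227855 to 25342590, minus strand) had a mean normalized count of 856, or 90.8 per kilobase on a transcript of 9421 bases, above 32.1% of genes. DNMT3B (chromosome 20, 32762385 to 32809359, plus strand) had a mean normalized count of 138 and 31.8 per kilobase, above 17.5% of genes. DNMT1 thus made up 88.8% of the summed level per kilobase of the 3 methyltransferase genes, DNMT3A 8.31% and DNMT3B 2.91%. The level of DNMT1 was 10.7 times that of DNMT3A and 30.6 times that of DNMT3B. With the coding length these ratios were 3.34 and 19.4, and with no division by length DNMT1 was 5.98 times DNMT3A. Of the de novo enzymes, DNMT3A was the higher, at 2.86 times DNMT3B per kilobase and at 5.81 times when divided by the coding length, since much of its canonical transcript is not coding (2736 coding bases). DNMT3L, a catalytically inactive partner of the de novo enzymes in the germ line, had a mean normalized count of 0.746.

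UHRF1, which brings DNMT1 to newly replicated DNA, lies on chromosome 19 from 4903080 to 4962154 on the plus strand. Its mean normalized count of 1613 gave 414 per kilobase, above 67.1% of genes. DNMT1 was 2.35 times as high per kilobase as UHRF1. A processed pseudogene on chromosome 12 shares 27.9% of the 50-base words of the canonical UHRF1 transcript. How the authors' counting treated reads that match both is not given in the sources used here. The UHRF1 level is therefore less certain than those of the other members. TET3 shares 2.84% of such words with an overlapping noncoding RNA gene on the same strand, DNMT3A shares 0.0534% with other genes, and DNMT1, DNMT3B, TET1, TET2 and MBD2 share 0. Genes annotated within the same span could also take or add reads, among them S1PR2 on the strand of DNMT1, SNORA37 on the strand of MBD2 and TET2-AS1 opposite TET2. The library kit keeps strand, but the strand setting of the counting is not given in the sources used here. Neither shared words nor overlapping genes were checked for the genes set beside the 8 members, among them PCNA, TDG and AHCY. UHRF2, the paralog of UHRF1, was at 1178 per kilobase, and UHRF1 stood at 0.351 times its level. HELLS, a chromatin remodeler needed for methylation of repeats, and USP7, a deubiquitinase that stabilizes DNMT1, were at 300 and 627 per kilobase.

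The erasers were dominated by TET2. TET2 (chromosome 4, 105145875 to 105279816, plus strand) had a mean normalized count of 1267 and 132 per kilobase, above 39.5% of genes. TET3 (chromosome 2, 73984910 to 74108176, plus strand) was at 459, or 38.1 per kilobase, above 19.5% of genes. TET1 (chromosome 10, 68560337 to 68694487, plus strand) was at 98.2, or 10.2 per kilobase, above 7.75% of genes. TET2 made up 73.2% of the summed level per kilobase of the TET genes, TET3 21.1% and TET1 5.66%. TET2 was 3.47 times TET3 and 12.9 times TET1. The summed level of the DNMT genes was 6.06 times that of the TET genes. Most of that sum is DNMT1, and the summed level of DNMT3A and DNMT3B alone, 123 per kilobase, was 0.679 times the summed level of the TET genes, 180.5 per kilobase. That order turned with the coding length, where it was 1.18 times. TDG, the glycosylase that excises oxidized methylcytosine, was at 484 per kilobase, above each TET gene.

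The reader MBD2 (chromosome 18, 54151606 to 54224669, minus strand) had a mean normalized count of 2092 and 413 per kilobase, above 67.1% of genes. Per kilobase of canonical transcript it was level with UHRF1, at 0.999 times its value, but it was the higher with the longest transcript (1.10 times), with the coding length (2.50 times) and with no division by length (1.30 times). MBD1, MBD3 and MBD4, of the same domain family, were at 372, 225 and 906 per kilobase. MBD3 does not bind methylated CpG and takes the place of MBD2 in NuRD, whereas MBD4 is a DNA glycosylase. The zinc finger readers ZBTB33, ZBTB38 and ZBTB4 were at 643, 426 and 494 per kilobase.

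From the highest to the lowest level per kilobase, the order was DNMT1, UHRF1, MBD2, TET2, DNMT3A, TET3, DNMT3B and TET1. Neighbours in this order were nearly equal for UHRF1 and MBD2 and otherwise differed by 1.20 times (TET3 and DNMT3B), by 1.46 times (TET2 and DNMT3A) and, for the other steps, by 2.35 to 3.13 times. Whether any of these steps exceeds the spread between libraries cannot be told from pooled means. Some of the order depended on the length used. TET3, DNMT3B and TET1 kept the last places with the canonical, longest and coding lengths and with no division by length. With the coding length, MBD2 came first (1697 per kilobase, on 1233 coding bases), above DNMT1 (1045), and DNMT3A (313) came above TET2 (211).

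**Figure D3:**
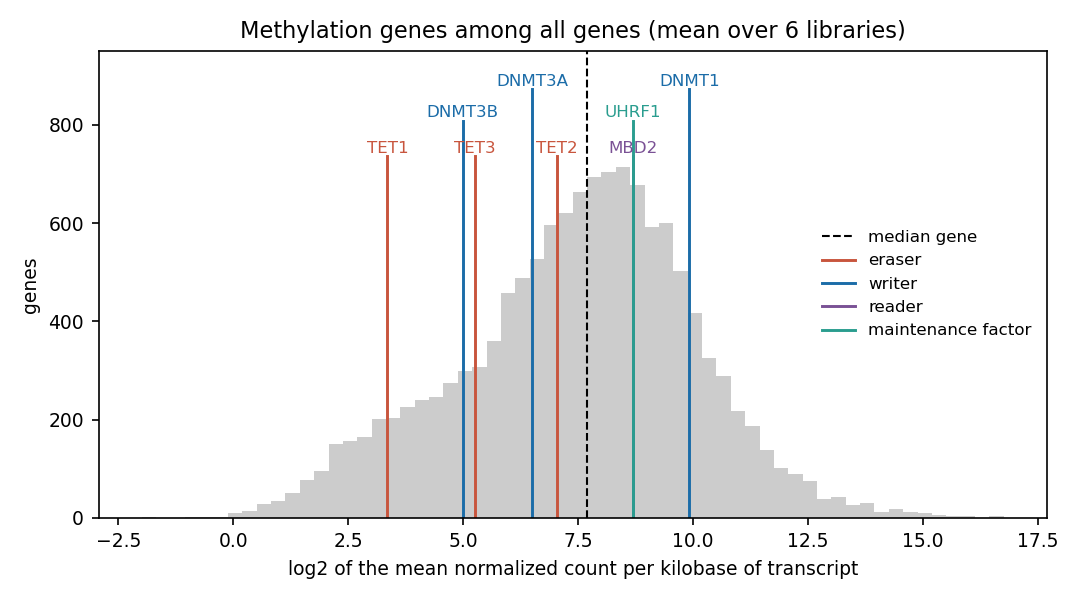
The histogram gives the number of genes (vertical axis) at each log2 mean normalized count per kilobase (horizontal axis). It covers the 13028 genes that had a length and a mean normalized count of 10 or more. The median gene is dashed, and lines mark the 8 methylation genes. DNMT1, UHRF1 and MBD2 lie above the median gene, and the other genes lie below it.

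Against all genes, 3 of the 8 (DNMT1, UHRF1 and MBD2) were above the median gene per kilobase, and the median of their percentiles was 35.8. Among 13 other genes of DNA methylation, 12 were above the median gene, with a median percentile of 71.3. The lowest of these 12 was MBD3, at the percentile 51.7. The highest were MAT2A, which makes the methyl donor S-adenosylmethionine, and AHCY, which clears its product S-adenosylhomocysteine, at 3969 and 2555 per kilobase. The remaining gene, DNMT3L, had a mean normalized count under 10. Replication genes, beside which maintenance methylation takes place, were also above the median gene. PCNA, the sliding clamp that DNMT1 binds, was at 2805 per kilobase, 2.89 times DNMT1 (0.699 times with no division by length), while MCM2, MKI67 and MCM5 were at 731, 537 and 433.

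**Figure D4:**
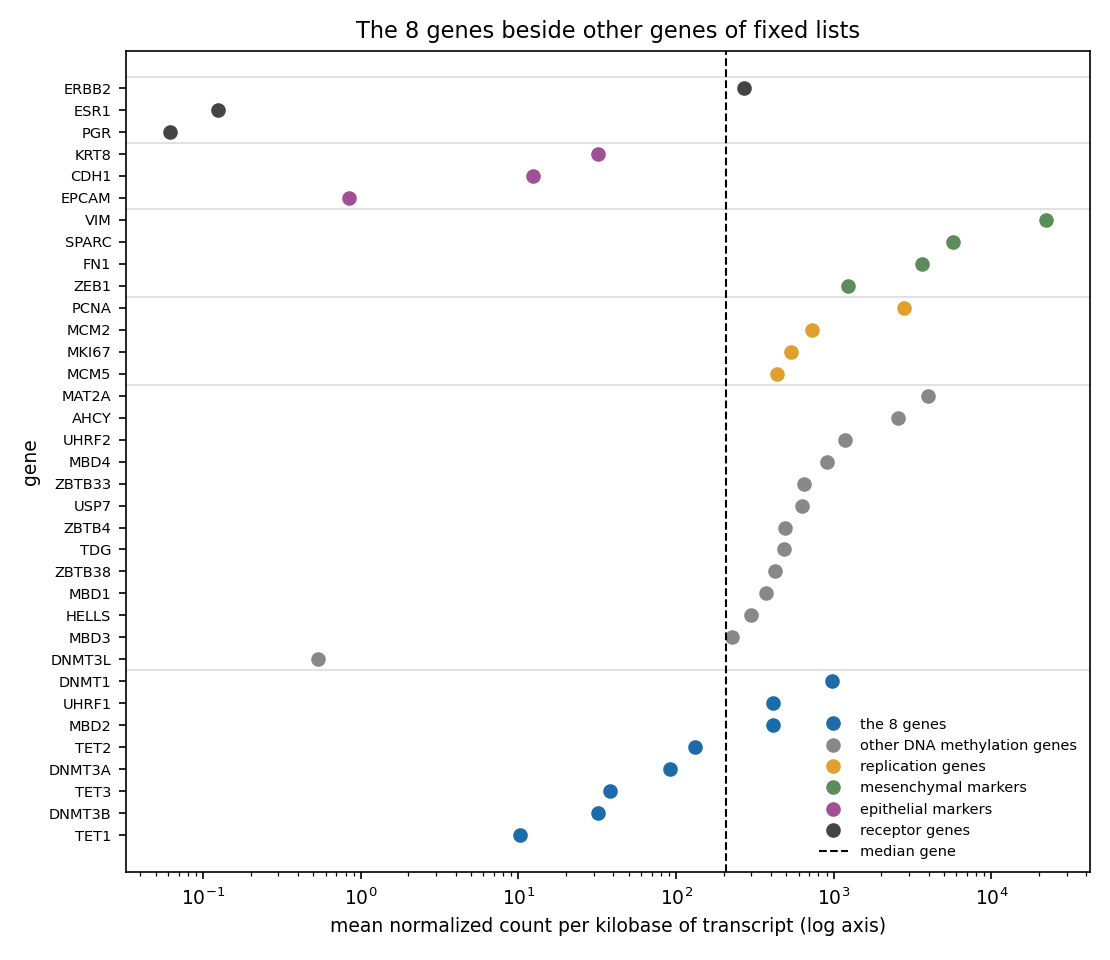
Points give the authors' mean normalized count per kilobase over 6 libraries (log axis) for the 8 genes, other DNA methylation genes, replication genes and cell type markers, with the median gene (208 per kilobase) dashed. The other DNA methylation genes lie to the right of the median gene apart from DNMT3L, whereas 5 of the 8 genes lie to its left.

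The place of a gene among all genes depended on the genes it was ranked with and on length scaling. Over the 5 alternatives tried, DNMT1 stayed between the percentiles 66.4 and 91.9, MBD2 between 59.6 and 77.6 and UHRF1 between 56.0 and 76.6, all above the median gene. TET1 ranged from 0.151 to 32.7, DNMT3B from 3.32 to 40.7 and TET3 from 4.70 to 42.3, all below it. The lowest TET1 value comes from the minimum of 100, which TET1 (98.2) does not reach. It was there ranked among genes that all had higher counts, so a value near the bottom says little. TET2 (26.1 to 64.3) and DNMT3A (17.5 to 54.1) lay below the median gene or above it according to the choice.

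**Figure D5:**
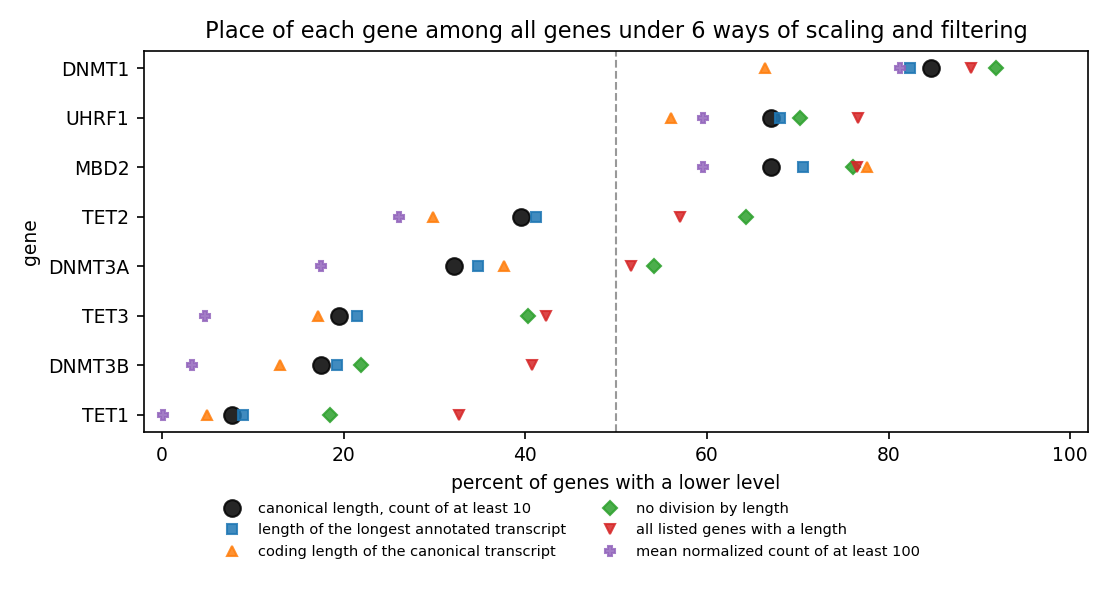
The percent of genes with a lower level (horizontal axis) is given for each of the 8 genes (vertical axis) under 6 ways of scaling and filtering, with the reported value as a large black circle. TET2 and DNMT3A cross the dashed line at 50%, and the other genes stay on one side of it.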

How the data were processed

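RNA-seq was performed on 3 vehicle and 3 DOX libraries. The authors isolated RNA (with a column kit per the labels and with Trizol per the methods) and made libraries with a stranded poly(A) kit. GRCh38, STAR and DESeq2 are named in the submitters' processing notes, and the methods give STAR for alignment and DESeq2 for normalization. The gene counter, the version of each tool and any filter on low counts are not given in the sources used here. The deposited signal value is the mean normalized count over all libraries. The table also holds 5 columns of the authors' own comparison (log2 fold change, standard error, statistic, p-value and adjusted p-value), which were not used. It holds no counts of single libraries, so the planned count test could not be run. Of 19792 symbols, 17729 matched GENCODE 44 directly, 593 through a RefSeq synonym and 1470 did not match. The annotation behind the authors' counts may differ from GENCODE 44, so the exons counted may not be those whose lengths were used. Levels were divided by the length of the Ensembl canonical transcript, in kilobases. A mean normalized count of 10 or more was reached by 13548 genes, and levels were ranked among the 13028 of them with a length. Promoters and shared words were added after the data were seen. The genes named are the 8 members, WDR5 and lists of pathway, replication and marker genes. The members and lists were chosen with earlier results of these data known. The ranking and CpG functions were tested on simulated data. Computation used Python 3.11.15 with pandas 2.3.3, numpy 2.4.6 and matplotlib 3.10.9.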

Additional observations from a re-analysis of the deposited data

How the results depend on the processing

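No paired analysis was possible because only a mean over all libraries was analysed. For the same reason, DESeq2 in place of edgeR, leaving out a library and a filter on counts of single libraries were not run. The RefSeq coding length was not run, and the GENCODE coding length, chosen after the data were seen, took its place. With it, DNMT1 made up 74.0% of the DNMT genes and TET2 67.7% of the TET genes, DNMT3A was 5.81 times DNMT3B, PCNA was 4.37 times DNMT1, and DNMT1 was 1.54 times UHRF1, 3.34 times DNMT3A and 19.4 times DNMT3B. Some orders turned with it: the summed DNMT3A and DNMT3B level was 1.18 times that of the TET genes, TET2 was 0.675 times DNMT3A and MBD2 was 2.50 times UHRF1. With no division by length, MBD2 was 1.30 times UHRF1 and PCNA 0.699 times DNMT1, which also turned, 5 of the 8 genes lay above the median gene with a median percentile of 59.2, DNMT1 made up 83.7%, DNMT3A was 6.21 times DNMT3B, DNMT1 was 5.98 times DNMT3A, the summed DNMT value was 3.35 times that of the TET genes and the median percentile of the other methylation genes was 83.2. With the longest transcript MBD2 was 1.10 times UHRF1, and no other value moved. Among all listed genes with a length, 5 of the 8 genes lay above the median gene, and the median percentile was 54.3 for the 8 genes and 79.6 for the other methylation genes. With the minimum raised from 10 to 100, these were 21.8 and 64.8, with TET1 still ranked though it lies under that minimum. Values within 5 percentage points or percentiles, or within 1.5 times for counts and ratios, were taken as unmoved, which held for the other 65 summary values and, among percentiles of single genes, for 15 as against 25 that moved. These turns and moves with length follow from the lengths alone, since the mean normalized counts are the same.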
